A study of Chlamydomonas reinhardtii with 20 samples.

Results

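The transcripts described here are those of 3 genes of Chlamydomonas reinhardtii, out of 17737 gene IDs in the expression table. Cre07.g320400 and Cre07.g320450 were taken as genes of early light-inducible protein (ELIP) type, and Cre17.g740950 was taken as LHL4, a gene for a light-harvesting-like protein. They were chosen by ID, and all 3 were in the table. All 3 also passed the filter on low values, at least 1 RPKM (a read count per gene length and library size) in at least 2 libraries, as 13871 genes did. Neither the expression table nor RefSeq's gene list (assembly Chlamydomonas_reinhardtii_v5.5) gives these IDs a name, so the family names come from the choice of the genes and were not checked against protein sequence. In the RefSeq order Cre07.g320400 and Cre07.g320450 are adjacent, and Cre17.g740950 lies on another chromosome.

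ELIPs are relatives of the chlorophyll-binding antenna proteins (the LHC family) and sit in the thylakoid membrane. In plants they appear briefly when dark-grown tissue is first lit or when light is in excess. They are thought to hold free chlorophyll and carotenoids, which limits damage by light. LHL4 of Chlamydomonas is a further LHC relative, whose transcript is known to be induced by strong light. The series concerns bilins, linear tetrapyrroles that start from biliverdin (BV), the product of heme oxygenase.

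The study holds 20 RNA-seq libraries, 2 in each of 10 groups, from cultures grown on acetate medium in darkness with 0.5% methanol in every group. The wild type 4A+ and the heme oxygenase mutant hmox1 were sampled after 4 h of white light, without BV or with 0.1 mM of BV IXα, which was in the medium from inoculation on and not added with the light. For ho1C1 and ho1C2, labelled as complemented hmox1 strains, the BV-free series ran from darkness through 0.5 h to 4 h of white light. For 4A+ and hmox1 no library from the dark or from 0.5 h of light was analysed here, so light and BV responses were read in different strains. The treatment protocol gives 150 µmol photons per square metre and second and names only the short exposure, the 4 h exposure is in the labels of the single samples, and the design text calls the light low. The transcript of the mutated gene was not analysed here, so the strain labels were not checked against it.

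Libraries of one group correlated across genes at 0.9929 to 0.998 on the log2 scale, genes not being independent replicates. In hmox1 without BV the libraries differed most, by 0.155 in log2 for the median gene, while every other group lay between 0.07 and 0.0886. Read totals per library were not used here, so no counting interval stands beside the low values. Replicates are labelled as biological, with nothing on how the cultures were separated, and p-values measure the spread between these samples. Bulk RNA does not tell a change per cell from a change in the share of cells that express a gene.

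All 3 transcripts were highest after 0.5 h of light, lower after 4 h, and lowest in the dark or with BV. The group means of Cre07.g320400 spanned a 2793-fold range, those of Cre07.g320450 a 340-fold range and those of Cre17.g740950 a 29.5-fold range. At 0.5 h in ho1C1 they stood at ranks 158, 133 and 184 from the top among the 13871 genes tested. In the dark in ho1C2, 0.93% of the genes tested lay below Cre07.g320400, 23.1% below Cre07.g320450 and 80.2% below Cre17.g740950. In the dark LHL4 was among the more abundant transcripts, and Cre07.g320400 was close to the bottom of the table.

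**Figure D1:**
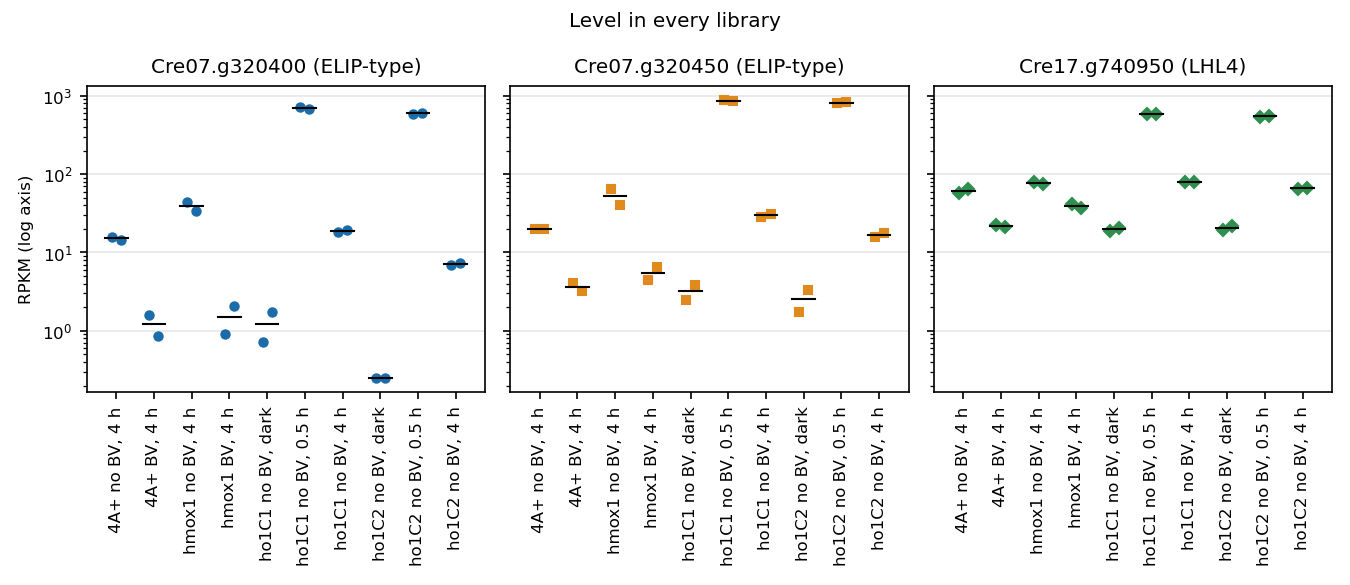
RPKM of the 3 genes (log axis) in every library of the 10 groups, with 1 point per library and a bar at the mean of 2. The 4 libraries from 0.5 h of light lie between 543 and 886 RPKM for all 3 genes, and the lowest points are those of Cre07.g320400 in the dark in ho1C2, at 0.25 RPKM.

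The first question was how far these genes rose within 0.5 h of light. In ho1C1, Cre07.g320400 was at 0.72 and 1.75 RPKM in the dark and at 709 and 687 RPKM after 0.5 h. In ho1C2 it was at 0.25 RPKM in both dark libraries and at 591 and 600 RPKM after 0.5 h. Dark and lit libraries did not come near each other in either line. The log2 difference, on the log2(RPKM + 1) scale used for all tests, was 8.33 (SE 0.24, adjusted p = 6.09e-12) in ho1C1 and 8.90 (SE 0.24, adjusted p = 3.82e-12) in ho1C2, by limma with Benjamini-Hochberg adjustment over all genes tested. On this scale it was the second largest rise of all genes in both lines. The size depends on the pseudocount, at 9.15 and 10.7 with 0.1 and at 6.82 and 6.84 with 5. On plain RPKM the means rose 565-fold and 2381-fold, folds that rest on very low dark levels whose read numbers are not known.

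Its neighbour Cre07.g320450 rose beside it. It went from 2.48 and 3.89 RPKM to 886 and 851 RPKM in ho1C1, and from 1.74 and 3.37 RPKM to 814 and 822 RPKM in ho1C2. The log2 differences were 7.72 (SE 0.26, adjusted p = 5.33e-11, limma) and 7.89 (SE 0.26, adjusted p = 5.16e-11, limma), rank 4 from the top in both lines. At 0.5 h it was the most abundant of the 3 genes per length in all 4 libraries.

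LHL4 (Cre17.g740950) started higher and rose less. Its dark levels were 18.8 and 20.6 RPKM in ho1C1 and 19.6 and 21.5 RPKM in ho1C2. After 0.5 h they were 577 and 585 RPKM in ho1C1 and 543 and 550 RPKM in ho1C2. The log2 differences were 4.81 (SE 0.07, adjusted p = 1.38e-19, limma) and 4.67 (SE 0.07, adjusted p = 1.9e-19, limma), at ranks 15 and 13 among all genes. So 3 of 3 genes rose in each line, where 21.7% of all genes tested were called higher in ho1C1 and 22.6% in ho1C2. At least 2-fold rises made up 7.09% and 6.41% of genes. The median of all genes moved down by 0.38 and 0.31 on the log2 scale, so relative to the other transcripts the 3 rises were slightly larger still.

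The high level at 0.5 h was largely gone at 4 h. No time point between 0.5 h and 4 h was sampled, so the time and length of the peak are not known. By 4 h Cre07.g320400 had fallen to 18.4 and 19.4 RPKM in ho1C1 and to 6.92 and 7.27 RPKM in ho1C2. Cre07.g320450 had fallen to 28.7 and 31.1 RPKM in ho1C1 and to 15.9 and 17.9 RPKM in ho1C2. LHL4 was at 79.4 and 80.3 RPKM in ho1C1 and at 64.8 and 66.9 RPKM in ho1C2. For each gene the 4 h libraries lay apart from both the dark and the 0.5 h libraries of their line. How many of all genes separate in the same way was not counted.

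Of the rise above the dark level, 2.53% was left at 4 h for Cre07.g320400 in ho1C1, with 2.36% to 2.71% over the choices of single libraries, and 1.15% in ho1C2, with 1.11% to 1.19%. For Cre07.g320450 the shares were 3.09% in ho1C1 (2.82% to 3.37%) and 1.76% in ho1C2 (1.53% to 1.99%). LHL4 kept 10.7% in ho1C1 (10.4% to 11%) and 8.61% in ho1C2 (8.19% to 9.04%). These ranges do not overlap between LHL4 and the ELIP-type pair in either line.

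Between 0.5 h and 4 h the 3 genes fell in both lines, while 24.4% of all genes in ho1C1 and 26.4% in ho1C2 were called lower. Cre07.g320400 fell by 5.14 (SE 0.24, adjusted p = 1.16e-09, limma) in ho1C1 on the log2 scale, and the difference in ho1C2 was -6.20 (SE 0.24, adjusted p = 1.91e-10, limma). This was the third largest fall of all genes in each line, and that of Cre07.g320450 was the next, at -4.81 and -5.52. LHL4 fell as well, with differences of -2.85 and -3.03, at rank 37 of the falls in both lines. Falls of at least 2-fold made up 5.51% of genes in ho1C1 and 5.86% in ho1C2.

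Despite this decline, all 3 genes were still above their dark level at 4 h. In ho1C1 the log2 differences from dark were 3.19 for Cre07.g320400, 2.90 for Cre07.g320450 and 1.97 for LHL4, with adjusted p = 1.26e-07, 8.59e-07 and 2.32e-14 by limma. In ho1C2 they were 2.69, 2.37 and 1.63, with adjusted p = 7.54e-07, 6.05e-06 and 4.03e-13. The pair's values move with the pseudocount and LHL4's hardly do. For Cre07.g320400 the difference was 3.95 in ho1C1 and 4.36 in ho1C2 with 0.1, and 1.94 and 1.20 with 5, while its mean RPKM stood 15.3-fold and 28.4-fold above dark. For LHL4 in ho1C2 it was 1.68 and 1.47, so with a pseudocount of 5 LHL4 exceeded Cre07.g320400 there. Of all genes tested, ho1C1 had 26% called higher at 4 h and ho1C2 had 22.6%, with 5.39% and 4.3% at 2-fold or more. The 3 light comparisons within a line share libraries and are not independent of each other.

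**Figure D2:**
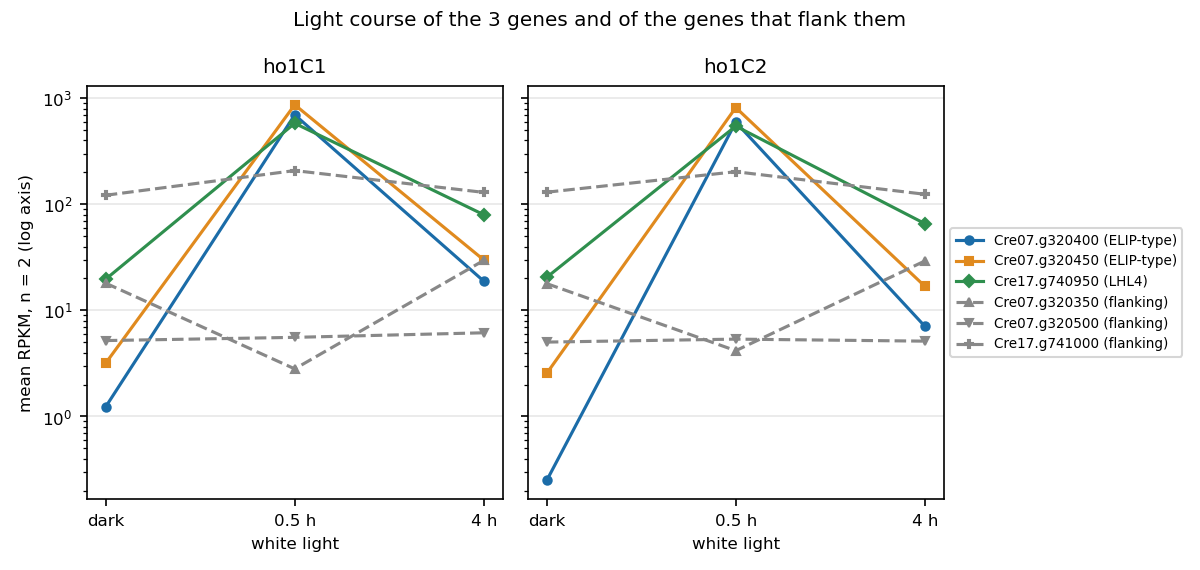
Mean RPKM (n = 2, log axis) by time in white light (dark, 0.5 h, 4 h) in ho1C1 (left) and ho1C2 (right), for the 3 genes (solid lines) and the tested genes that flank them in the RefSeq order (dashed grey lines). Of the 3 times sampled, the 3 genes are highest at 0.5 h, while Cre07.g320350 next to the ELIP-type pair goes down from 18.1 to 2.81 RPKM in ho1C1.

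The next question was what BV did to these genes in lit cells. In 4A+ at 4 h, Cre07.g320400 was at 15.9 and 14.6 RPKM without BV and at 1.61 and 0.85 RPKM with it. In hmox1 it was at 43.8 and 33.8 RPKM without BV and at 0.92 and 2.09 RPKM with it. Libraries with and without BV lay far apart in both strains. The log2 difference was -2.89 (SE 0.24, adjusted p = 4.73e-07, limma) in 4A+ and -4.02 (SE 0.24, adjusted p = 2.24e-08, limma) in hmox1. On this scale the change in hmox1 was the largest fall of the 13871 genes tested, and that in 4A+ ranked sixth from the bottom. With a pseudocount of 0.1 the differences were -3.59 and -4.69, and with 5 they were -1.70 and -2.75, called in each case.

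Cre07.g320450 was at 19.8 and 20.1 RPKM in 4A+ without BV and at 4.03 and 3.23 RPKM with it. In hmox1 the values were 64 and 40.4 RPKM without BV and 4.4 and 6.5 RPKM with it. The log2 differences were -2.18 (SE 0.26, adjusted p = 1.55e-05, limma) in 4A+ and -3.03 (SE 0.26, adjusted p = 9.04e-07, limma) in hmox1, at ranks 16 and 8 of the falls.

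LHL4 fell as well, but less. It was at 57.4 and 65 RPKM in 4A+ without BV and at 22.7 and 21.4 RPKM with it, a log2 difference of -1.43 (SE 0.07, adjusted p = 3.79e-12, limma). In hmox1 it was at 80.1 and 74.1 RPKM without BV and at 41.3 and 37.3 RPKM with it, a log2 difference of -0.96 (SE 0.07, adjusted p = 1.26e-09, limma). So BV lowered 3 of 3 genes in each strain, where 27.4% of all genes were called lower in 4A+ and 37.7% in hmox1. Falls of at least 2-fold made up 3.43% and 3.57% of genes, and LHL4 in hmox1 missed that size. Beside the dark libraries, which belong to other strains, Cre07.g320400 with BV overlapped with its dark level in ho1C1, at 0.72 and 1.75 RPKM, and lay above both dark libraries of ho1C2. Cre07.g320450 in hmox1 with BV lay above all 4 dark libraries, and in 4A+ with BV it overlapped with the dark libraries of both lines. LHL4 with BV in 4A+ overlapped with its dark level in ho1C2 and lay above both dark libraries of ho1C1, and in hmox1 with BV it lay above all 4 dark libraries.

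Whether the BV response differed between strains was tested as a difference of the 2 responses. LHL4 fell less in hmox1, with a difference of 0.48 on the log2 scale (SE 0.1, adjusted p = 0.001, limma), and 8.04% of all genes were called in that direction. Cre07.g320400 went the other way, with a difference of -1.13 (SE 0.34, adjusted p = 0.0235, limma), where 25.5% of genes were called lower. That call for Cre07.g320400 is not firm. It was lost with a pseudocount of 0.1 (adjusted p = 0.172), with median-ratio library factors (0.0659), with only the 4 groups compared in the fit (0.0534), and without any one of 4 libraries. Those were 4A+ without BV replicate 2 (adjusted p = 0.0667), 4A+ with BV replicate 1 (0.0908), hmox1 without BV replicate 1 (0.0894) and hmox1 with BV replicate 1 (0.079). For Cre07.g320450 the difference of -0.85 (SE 0.36) did not pass the threshold (adjusted p = 0.0979, limma). Without hmox1 without BV replicate 2 it did, at -1.17 (adjusted p = 0.0267).

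Without BV, the ELIP-type pair was higher in hmox1 than in 4A+ after 4 h of light. The means of Cre07.g320400 were 38.8 ± 7.09 RPKM (SD, n = 2) in hmox1 and 15.3 ± 0.905 RPKM in 4A+, a log2 difference of 1.28 (SE 0.24, adjusted p = 0.000569, limma). Those of Cre07.g320450 were 52.2 ± 16.7 and 19.9 ± 0.17 RPKM, a difference of 1.31 (SE 0.26, adjusted p = 0.000863, limma). The groups did not overlap for either gene, but how often this held among all genes was not counted. The hmox1 libraries differed among themselves, with SDs of 18.3% and 32% of the mean. For LHL4, 77.1 ± 4.26 RPKM in hmox1 against 61.2 ± 5.33 RPKM in 4A+ gave a log2 difference of 0.33 (SE 0.07, adjusted p = 0.000425, limma). In all, 3 of 3 genes were called higher, as were 53.5% of all genes, and the pair was among the 7.04% that were at least 2-fold higher.

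The median of all genes in this comparison was 0.24. Relative to it the pair stood at 1.04 and 1.07, and LHL4 at 0.09. Median-ratio factors moved the median by -0.25. With them the pair stood at 0.95 and 0.98, short of 2-fold but still called (adjusted p = 0.0047 and 0.0057, limma). With the same factors the LHL4 difference became -0.0066 (adjusted p = 0.943, limma). For LHL4 a strain difference and the shift of all transcripts therefore cannot be told apart.

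With BV present, the pair was not called between strains and LHL4 was. Cre07.g320400 was at 1.51 ± 0.827 RPKM in hmox1 and 1.23 ± 0.537 RPKM in 4A+, with overlapping libraries (log2 difference 0.15, SE 0.24, adjusted p = 0.642, limma). Cre07.g320450 differed by 0.46 (SE 0.26, adjusted p = 0.158, limma). Its libraries did not overlap, at 4.4 and 6.5 RPKM in hmox1 and 4.03 and 3.23 RPKM in 4A+. Only LHL4 was called, at 39.3 ± 2.85 RPKM in hmox1 and 22 ± 0.898 RPKM in 4A+ (0.81, SE 0.07, adjusted p = 2.04e-08, limma), among 34.9% of all genes called higher. The 4 comparisons of strain and BV share their libraries in pairs.

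**Figure D3:**
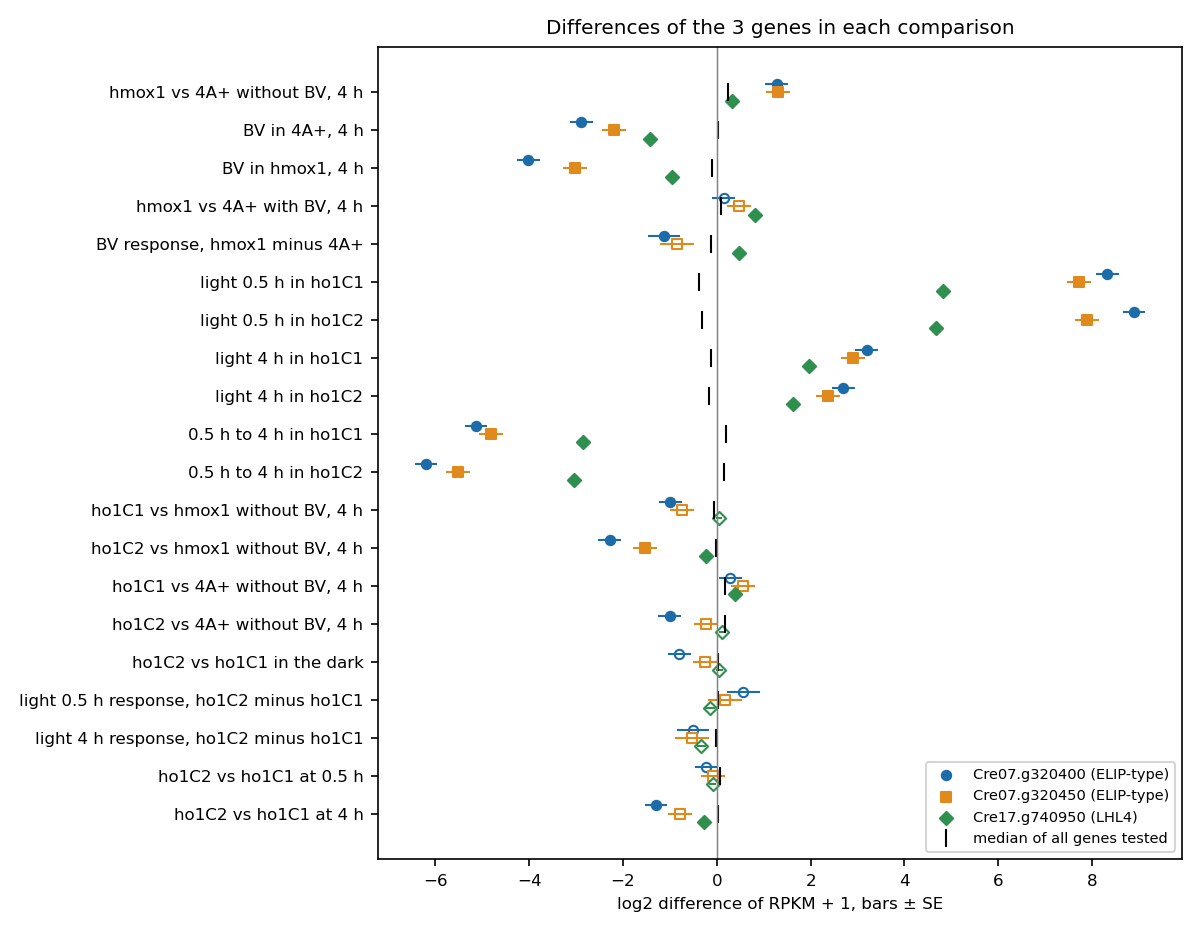
Log2 difference of RPKM + 1 (x axis, bars ± SE) of the 3 genes in each of the 20 comparisons, with filled symbols where the limma adjusted p was under 0.05 and open symbols where it was not. Black ticks mark the median of all genes tested. As plotted, with a pseudocount of 1, the pair moves further than LHL4 in each light and BV comparison within a strain (with a pseudocount of 5 Cre07.g320400 does not at 4 h in ho1C2, 1.20 against 1.47), and LHL4 stands further from zero than the pair in hmox1 against 4A+ with BV.

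Complementation was read at 4 h without BV, where each line can be set beside hmox1 and 4A+. The libraries of Cre07.g320400 fell into this order, at 38.8 RPKM in hmox1, 18.9 ± 0.651 RPKM in ho1C1, 15.3 RPKM in 4A+ and 7.1 ± 0.247 RPKM in ho1C2, with no overlap between neighbours. That rests on 2 libraries each, and ho1C1 and 4A+ did not pass the limma threshold (adjusted p = 0.336). The order was the same for Cre07.g320450, at 52.2, 29.9 ± 1.67, 19.9 and 16.9 ± 1.39 RPKM. For LHL4 the order was ho1C1 at 79.9 ± 0.629 RPKM, hmox1, ho1C2 at 65.8 ± 1.52 RPKM and 4A+, and ho1C1 overlapped with hmox1 and ho1C2 with 4A+.

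Against hmox1, ho1C2 was lower in 3 of 3 genes, where 22.9% of all genes were called lower, 1.8% at least 2-fold. The log2 differences were -2.29 for Cre07.g320400 (SE 0.24, adjusted p = 1.18e-05, limma), -1.54 for Cre07.g320450 (SE 0.26, adjusted p = 0.000583) and -0.22 for LHL4 (SE 0.07, adjusted p = 0.0153). The LHL4 call was lost without hmox1 replicate 1 (-0.17, adjusted p = 0.104), without ho1C2 replicate 1 (-0.20, adjusted p = 0.0913) and with only the groups compared (adjusted p = 0.133). In ho1C1, 1 of 3 genes was called lower, where 19.6% of all genes were. Cre07.g320400 differed by -0.99 (SE 0.24, adjusted p = 0.0098, limma), a call lost without hmox1 replicate 1 (-0.81, adjusted p = 0.087) and without ho1C1 replicate 1 (-0.96, adjusted p = 0.0569). Cre07.g320450 differed by -0.75 (SE 0.26) and lay just outside the threshold (adjusted p = 0.0507), while LHL4 differed by 0.05 (SE 0.07, adjusted p = 0.626).

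Against 4A+, Cre07.g320400 in ho1C1 differed by 0.29 (SE 0.24, adjusted p = 0.336, limma), or by 0.04 with median-ratio factors (adjusted p = 0.903), and Cre07.g320450 by 0.56 (SE 0.26, adjusted p = 0.0871). LHL4 was higher there by 0.38 (SE 0.07, adjusted p = 0.000156, limma), as were 43.5% of all genes, around a median of 0.18, and by 0.12 with median-ratio factors (adjusted p = 0.161). In ho1C2, Cre07.g320400 was below 4A+ by 1.01 on the log2 scale (-1.01, SE 0.24, adjusted p = 0.00364, limma), where 11.4% of genes were called lower. The other 2 genes were not called there, at -0.23 (SE 0.26, adjusted p = 0.477) and 0.11 (SE 0.07, adjusted p = 0.198). With median-ratio factors LHL4 stood at -0.19 and was called (adjusted p = 0.0295).

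The complemented lines also differed from each other. At 4 h Cre07.g320400 was lower in ho1C2 than in ho1C1, with a log2 difference of -1.30 (SE 0.24, adjusted p = 0.00388, limma), and 4.63% of all genes were called lower. A pseudocount of 0.1 put it just past the threshold (-1.40, adjusted p = 0.0507), so the call was lost. LHL4 differed by -0.28 (SE 0.07, adjusted p = 0.0117), a call lost without either ho1C1 library (adjusted p = 0.0642 and 0.0812) or without ho1C2 replicate 1 (0.0877). Cre07.g320450 differed by -0.79 (SE 0.26, adjusted p = 0.0737). At 0.5 h 0 of 3 genes passed the limma threshold, where 2.21% of all genes were called lower and 10.8% higher. The differences were -0.23, -0.09 and -0.09 (SE 0.24, 0.26 and 0.07, limma adjusted p = 0.588, 0.872 and 0.434, unadjusted p = 0.361, 0.742 and 0.216). These comparisons at 0.5 h and at 4 h were added after the values had been seen.

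In the dark, 0 of 3 genes passed the limma threshold between the lines, where 0.67% of all genes were called lower and 2.77% higher, and 1 had an unadjusted p under 0.05. Cre07.g320400 was at 0.25 RPKM in both ho1C2 libraries and higher in both ho1C1 libraries (log2 difference -0.80, SE 0.24, unadjusted p = 0.00654, adjusted p = 0.114). With a pseudocount of 0.1 that difference was -1.82 and was called (adjusted p = 0.0417). The light response at 0.5 h differed between ho1C2 and ho1C1 by 0.57 (SE 0.34), 0.17 (SE 0.36) and -0.14 (SE 0.1) for Cre07.g320400, Cre07.g320450 and LHL4. At 4 h the differences were -0.50 (SE 0.34), -0.54 (SE 0.36) and -0.33 (SE 0.1). The first of these depends on the pseudocount, at 0.42 with 0.1 (adjusted p = 0.849, limma) and -0.74 with 5 (adjusted p = 0.00534). Of all genes, 1.03% were called higher and 0.678% lower at 0.5 h, and 1.54% higher and 3.19% lower at 4 h. By limma, 0 of these 6 differences of responses passed the threshold, and their adjusted p ran from 0.0617 to 0.908. Only the 4 h difference of LHL4 had an unadjusted p under 0.05, at 0.00323 in limma.

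The adjacent ELIP-type genes moved together, with Pearson r = 0.996 across the means of the 10 groups on the log2 scale and the same order of groups (Spearman's rho = 1). Without both 0.5 h groups r was 0.989 over 8 groups. LHL4 correlated with Cre07.g320400 at r = 0.98 and with Cre07.g320450 at r = 0.991 over 10 groups, and at 0.919 and 0.956 without the 0.5 h groups. These values describe 10 conditions that share strains and time points, and no test is attached to them.

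Per length, Cre07.g320450 exceeded Cre07.g320400 in 20 of 20 libraries. The factor was larger in the dark and with BV, where both genes were low, than at 0.5 h. In the dark and with BV it divides by Cre07.g320400 at only 0.25 to 2.09 RPKM, so its size there is uncertain. By group means it did not follow the level throughout, as ho1C1 at 4 h had higher means of both genes than 4A+ and yet a higher ratio. Neither of these differences in level was called. At 0.5 h the ratio of RPKM was 1.25 and 1.24 in ho1C1 and 1.38 and 1.37 in ho1C2. At 4 h without BV it was 1.24 and 1.37 in 4A+, 1.46 and 1.2 in hmox1, 1.56 and 1.61 in ho1C1 and 2.3 and 2.46 in ho1C2. With BV it was 2.5 and 3.8 in 4A+ and 4.78 and 3.11 in hmox1, and in the dark 3.44 and 2.22 in ho1C1 and 6.96 and 13.5 in ho1C2. The 4 h values of ho1C2 stood above those of the other strains without BV. The sources used here do not say how reads shared by similar neighbouring genes were assigned, so the split between both genes is less certain than their joint course.

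**Figure D4:**
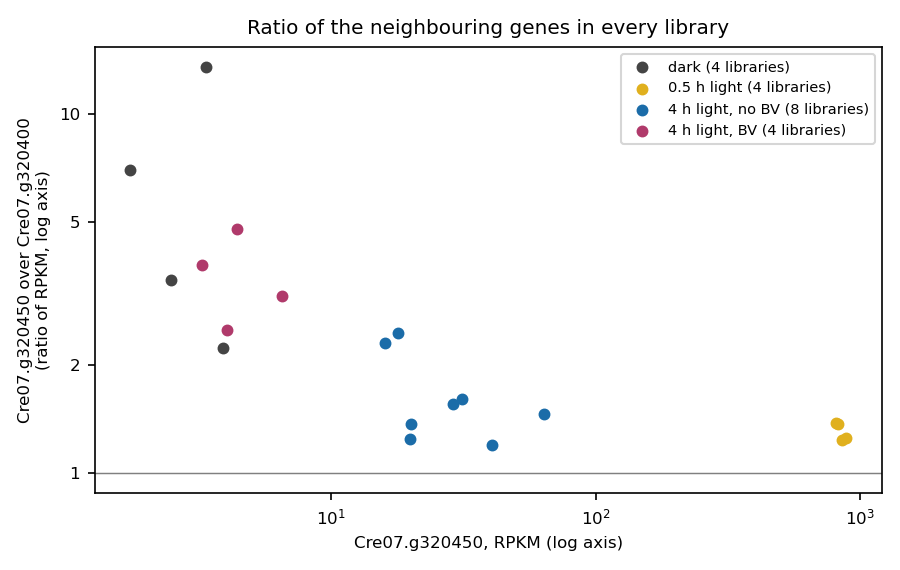
Ratio of the RPKM of Cre07.g320450 to that of Cre07.g320400 (log axis) against the RPKM of Cre07.g320450 (log axis), 1 point per library, coloured by light and BV. All 20 points lie above 1, from 1.2 in a 4 h library of hmox1 without BV to 13.5 in a dark library of ho1C2, and the 4 libraries from 0.5 h of light lie between 1.24 and 1.38.

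The genes that flank the pair had other courses in light. Cre07.g320350, on one side, went down at 0.5 h, from 18.1 ± 0.219 to 2.81 ± 0.17 RPKM in ho1C1 (log2 difference -2.32, SE 0.09, adjusted p = 3.21e-14, limma) and from 17.9 ± 0.863 to 4.17 ± 0.622 RPKM in ho1C2 (-1.87, SE 0.09, adjusted p = 7.94e-13). By 4 h it was above its dark level, at 29.6 ± 0.445 RPKM in ho1C1. On the other side Cre07.g320500 stood at 5.2 ± 0.163 RPKM in the dark and 5.57 ± 0.453 RPKM at 0.5 h in ho1C1 (0.08, SE 0.1, adjusted p = 0.45, limma). BV lowered it in hmox1, from 6.74 ± 0.82 to 2.65 ± 0.311 RPKM (-1.08, SE 0.1, adjusted p = 3.55e-08), and in 4A+ it was at 3.56 ± 0.219 RPKM without BV and 3.44 ± 0.297 RPKM with it (-0.04, SE 0.1, adjusted p = 0.77). Its BV response differed between strains by -1.05 (SE 0.14, adjusted p = 1.67e-05, limma). Without BV, Cre07.g320500 was higher in hmox1 than in 4A+ (0.76, SE 0.1, adjusted p = 3.26e-06, limma), as the pair was. Cre07.g320350 was lower there (-0.42, SE 0.09, adjusted p = 0.000351, limma).

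Next to LHL4, Cre17.g741000 rose with BV where LHL4 fell. It went from 77 ± 0.693 to 149 ± 2.02 RPKM in 4A+ (log2 difference 0.94, SE 0.06, adjusted p = 1.46e-10, limma) and from 185 ± 18.2 to 331 ± 0.438 RPKM in hmox1 (0.84, SE 0.06, adjusted p = 8.93e-10). In light Cre17.g741000 rose at 0.5 h as LHL4 did, by 0.77 in ho1C1 and 0.64 in ho1C2 (adjusted p = 1.04e-09 and 1.58e-08, limma). From 0.5 h to 4 h it fell, with differences of -0.68 and -0.70. At 4 h it was not called against dark (0.09 and -0.07, adjusted p = 0.189 and 0.34, limma), where LHL4 was. The gene on the other side of LHL4 in the RefSeq order was not in the expression table analysed here.

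Among all genes tested, the pattern of group means most like that of Cre07.g320400 was that of its neighbour Cre07.g320450, and the reverse also held. Outside the 3 genes, Cre10.g443350, Cre07.g339750 and Cre08.g369150 were most like Cre07.g320400, with r = 0.991, 0.99 and 0.989 over 10 groups. Cre10.g443350, Cre10.g444550 and Cre08.g369150 were most like Cre07.g320450, with r = 0.995, 0.995 and 0.992. The measure takes no account of size. Cre10.g443350 ranged over 0.55 on the log2 scale, from 9.41 RPKM in the dark to 14.2 RPKM at 0.5 h in ho1C1, against 9.13 for Cre07.g320400.

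For LHL4 the closest pattern was that of Cre10.g444550 (r = 0.997), followed by Cre16.g671000 (0.994) and Cre08.g372300 (0.993). Cre10.g444550 went from 5.31 ± 0.544 to 81.4 ± 3.66 RPKM at 0.5 h and to 16.8 ± 0.566 RPKM at 4 h in ho1C1, and BV lowered it from 14 ± 1.12 to 6.79 ± 0.0495 RPKM in 4A+ (log2 difference -0.94, SE 0.07, adjusted p = 1.78e-09, limma). No name or role is attached to these IDs in the sources used here. By Spearman's rho, 0 of the 3 closest genes were the same for each of the 3 genes described here.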

How the data were processed

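The members and the list of comparisons were chosen with earlier results of these data known. The deposited table holds 1 column per library of RPKM values made by the authors. That unit was inferred from the values, whose column sums run from 718144 to 797204. The submitters' processing notes name STAR 2.3.0 and HTSeq. The sources used here do not give genome build, annotation or strand setting. Relative depth was sought from the steps of 38 low genes, after other selections of genes gave no stable factors, but factors from 2 starting points differed by up to 2.02 times, so depth is treated as unknown.

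Log2(RPKM + 1) values were fitted by limma 3.58.1 (R 4.3.3, trend and robust options on) for the 13871 genes that reached 1 RPKM in 2 or more libraries. The fit held all 20 libraries and estimated 10 group means, which leaves 10 residual degrees of freedom. Adjustment was by Benjamini-Hochberg over the genes of each of 20 comparisons, at a threshold of 0.05. The 2 comparisons of ho1C2 with ho1C1 in light were added after the values had been seen. The fit was also run on simulated log2 values with normal noise. Changes were added there only to genes above the low levels, so that run does not bear on values near 1 RPKM. Alternatives were other pseudocounts, filters, library factors, fits and each library left out. Log2 differences understate changes of low genes. SDs are over 2 libraries. Where libraries are said not to overlap, the share of all genes that also do not was not counted.

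Named genes are the 3 members, the 3 genes with the highest Pearson r to each over group means, and the flanking genes in the RefSeq order. A list of LHC-motif proteins and a ranking by protein likeness were planned and not made, as no protein sequences were used here.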

Additional observations from a re-analysis of the deposited data

Results flagged for a closer look

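The response to BV differed between strains for 2 of the 3 genes by the test of that difference, which is what singled them out, where 8.04% of all genes were called higher and 25.5% lower in the same test. For Cre17.g740950 (LHL4) the fall with BV was smaller in hmox1 than in 4A+, by 0.48 on the log2 scale (SE 0.1, limma adjusted p = 0.001), and both hmox1 libraries with BV stood above both of 4A+. For Cre07.g320400 the fall was larger in hmox1, at -1.13 (SE 0.34, limma adjusted p = 0.0235), and that call was lost under several alternatives. The levels with BV were 0.92 and 2.09 RPKM in hmox1 and 1.61 and 0.85 RPKM in 4A+, which overlap, and the levels without BV were higher in hmox1.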

How the results depend on the processing

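Of 60 differences (3 genes in 20 comparisons), 37 kept their call and direction under all 28 alternatives, and 23 changed under at least 1. The cause of each change below was not tested. With a pseudocount of 0.1, Cre07.g320400 lost its call for the strain difference in BV response (-1.10), for ho1C1 against hmox1 (-1.02) and for ho1C2 against ho1C1 at 4 h (-1.40), and gained it for these lines in the dark (-1.82), and its 4 h light response between lines turned to 0.42, not called. With a pseudocount of 5, Cre07.g320450 gained calls for the BV response (-0.90), ho1C1 against hmox1 (-0.68), ho1C1 against 4A+ (0.49) and ho1C2 against ho1C1 at 4 h (-0.67), and Cre07.g320400 for the 4 h light response between lines (-0.74). With median-ratio factors LHL4 turned in hmox1 against 4A+ (-0.0066) and in ho1C2 against 4A+ (-0.19), and lost its call in ho1C1 against 4A+ (0.12), and Cre07.g320400 lost that of the BV response (-0.90).

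For ho1C1 against hmox1, Cre07.g320450 (-0.75) passed with no filter, with a filter of 5 RPKM, with the trend and robust options both off and with only the groups compared. The 4 h light response of LHL4 (-0.33) passed with the filter of 5 RPKM and with only the groups compared. With the trend and robust options both off, Cre07.g320450 passed in ho1C1 against 4A+ (0.56) and between the lines at 4 h (-0.79). With only the groups compared it passed in both of these and in ho1C2 against 4A+ (-0.23), Cre07.g320400 passed in ho1C1 against 4A+ (0.29) and between the lines at 0.5 h (-0.23), and calls were lost for Cre07.g320400 in the BV response (-1.13) and LHL4 in ho1C2 against hmox1 (-0.22).

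Leaving out 1 library at a time moved the BV response between -1.47 and -0.79 for Cre07.g320400 and between -1.17 and -0.52 for Cre07.g320450. Against hmox1, ho1C1 ranged from -1.17 to -0.81 and from -1.07 to -0.42 for the same genes, and ho1C2 from -0.28 to -0.17 for LHL4. Other ranges with a changed call were 0.51 to 0.62 (Cre07.g320450, ho1C1 against 4A+), -1.14 to -0.46 (Cre07.g320400, lines in the dark), -0.39 to -0.27 (LHL4, 4 h light response), -0.87 to -0.71 (Cre07.g320450, lines at 4 h) and -0.30 to -0.25 (LHL4, lines at 4 h). Ranges that cross 0, none of them called, were -0.19 to 0.49 (Cre07.g320400, hmox1 against 4A+ with BV), -0.0040 to 0.11 (LHL4, ho1C1 against hmox1), -0.59 to 0.083 and -0.0067 to 0.12 (Cre07.g320450 and LHL4, lines in the dark) and -0.17 to 0.50 (Cre07.g320450, 0.5 h light response between lines). A lone remaining library was assumed to vary like the other groups.

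The log2 ratio of Cre07.g320400 to Cre07.g320450 moved with a pseudocount of 0.1, to -1.54 (4A+ with BV), -1.87 (hmox1 with BV), -1.38 (ho1C1 dark), -2.85 (ho1C2 dark) and -1.24 (ho1C2 at 4 h). Whether replicate numbers pair the samples was not settled. The correlation of deviations between groups had a median of 0.0788, ran from -0.0979 to 0.33, and passed 0.1 in 16 of 45 pairs of groups. A replicate block changed 0 of 60 calls, and under the block the BV response of Cre07.g320400 had an adjusted p = 0.031 (limma). Unknown depth limits the levels near 1 RPKM most.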
